A study of Mus musculus with 12 samples.

Results

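The 10 genes described here are 8 small leucine-rich proteoglycan genes (Dcn, Bgn, Aspn, Lum, Fmod, Omd, Ogn and Podn) and 2 other genes of the bone matrix, the matrix Gla protein gene Mgp and the periostin gene Postn. They are rows of a count table of 32248 rows and were chosen by name, with their measured levels in these libraries already known, so their values below are a description and carry no test. All 10 were among the 13772 genes that passed the filter on low counts. The cells were OCY454, an osteocyte-like mouse line whose large T antigen is temperature-sensitive, so that it is kept at 33 °C and differentiates at 37 °C. The unedited line (WT) was compared with a line lacking exons 19 to 21 of Piezo1 after CRISPR-Cas9 editing (KO). The 6 groups were WT and KO after 1, 14 and 28 days at 37 °C, with 2 poly(A) RNA libraries per group and 12 in all. Both lines had the same medium and temperature change, and no group received a further agent per the labels. Piezo1 encodes a mechanically gated cation channel, and the study asked how its loss bears on osteocyte differentiation. Whether the 2 replicates of a group came from separate cultures, and from how many clones the KO line was made, is not said in the labels. The spread between replicates may therefore be technical, and a difference between WT and KO cannot be told apart from one between clones.

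Small leucine-rich proteoglycans are secreted proteins with a curved core of leucine-rich repeats that binds collagen fibrils, and many carry chondroitin, dermatan or keratan sulfate chains. They set the spacing and diameter of collagen fibrils, and several bind growth factors of the TGF-beta family. In bone, biglycan and decorin are abundant in the matrix laid down by osteoblasts, osteomodulin and osteoglycin are found in mineralised tissue, matrix Gla protein is an inhibitor of calcification that needs vitamin K-dependent carboxylation, and periostin is a matricellular protein of the periosteum that binds collagen and tenascin.

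Total counts per library ran from 8590132 to 15357433. Levels are given as CPM, the edgeR counts scaled to a common library size, on library totals scaled by TMM, and a difference as a log2 fold change with its standard error after ±, from an edgeR quasi-likelihood fit to all 12 libraries (n = 2 per group). A gene counts as called when its Benjamini-Hochberg adjusted p over the 13772 genes is below 0.05. All 11 osteoblast and osteocyte markers examined were tested, and their summed level was 8816 to 8902 CPM in WT and 8760 to 8803 in KO at day 1, 11710 to 12210 and 21960 to 22210 at day 14, and 3887 to 5580 and 2947 to 4639 at day 28. Marker by marker, 4 of the 11 were called higher and 2 lower in KO than in WT at day 1. At day 14 the counts were 4 and 4, and at day 28 they were 2 and 4. Of all genes tested, 19.5%, 23.8% and 19.8% were called higher in KO at days 1, 14 and 28. The shares called lower were 20.8%, 25.9% and 21.2%. The median log2 fold changes were 0.08, -0.39 and 0.01, so the higher sum of KO at day 14 does not stand for the list as a whole. The summed level moved with the levels of several of the 10 genes, and its part in the results below was not tested. Of the tendon and fibroblast markers, 4 of 8 passed the filter, the summed level of the list was between 25.9 and 55.8 CPM in every library, Tnmd had 0 counts in every group except WT at day 14 and Dpt 0 in WT at day 1. The sum of 7 chondrocyte markers, 5 of them tested, was 75.0 to 91.2, 95.9 to 97.5 and 72.0 to 84.4 CPM in WT at days 1, 14 and 28 and 65.5 to 69.1, 54.7 to 57.0 and 42.3 to 44.9 in KO. The 7 smooth muscle and pericyte markers summed to 273.4 to 278.2, 512.8 to 515 and 225.8 to 278.2 CPM in WT and 398.5 to 399, 488 to 495.2 and 290.1 to 312.7 in KO, and the sums of adipocyte, blood cell, skeletal muscle and endothelial markers did not exceed 29.2, 23.8, 7.29 and 5.78 CPM in any library. In these bulk libraries fewer cells of a type and less RNA per cell cannot be told apart. The Piezo1 count does not check the labels, since most of the transcript lies outside the deleted exons: its KO minus WT log2 fold change was -0.34 ± 0.06 at day 1, -0.91 ± 0.06 at day 14 and 0.22 ± 0.06 at day 28.

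Sequences upstream of the start are shown for 4 of the genes because the data bear on them in different ways. Aspn, Omd and Ogn lie next to each other, yet Aspn had levels over time unlike those of Omd and Ogn. Postn was the one gene of the 10 called higher in KO at all 3 days. The Postn call at day 1 (0.24 ± 0.10) lay at the threshold. It was lost with DESeq2, with library totals alone and without any 1 library of day 1 or day 14. In GRCm38/mm10, Aspn (ENSMUSG00000021388.14) occupies chr13:49544443-49567565, Omd (ENSMUSG00000048368.9) chr13:49582462-49592822 and Ogn (ENSMUSG00000021390.6) chr13:49608046-49624501, all on the plus strand and within 80.1 kb. Postn (ENSMUSG00000027750.16) occupies chr3:54361109-54391037 on the plus strand. The other genes are Dcn (ENSMUSG00000019929.16, chr10:97479609-97518143), Lum (ENSMUSG00000036446.5, chr10:97565128-97572703), Fmod (ENSMUSG00000041559.7, chr1:134037254-134048277) and Bgn (ENSMUSG00000031375.17, chrX:73483602-73495933) on the plus strand, and Podn (ENSMUSG00000028600.15, chr4:108014791-108096445) and Mgp (ENSMUSG00000030218.2, chr6:136872435-136875823) on the minus strand. The RefSeq promoter table for GRCm38.p6 matched 7 of the 10 genes, with no entry for Dcn, Lum and Mgp. The entry for Podn starts 64491 bases from the start in the gene annotation and was left out of what follows. The lines below give, 5′ to 3′ on the plus strand, the 250 bases before the RefSeq start at chr13:49544193-49544442 (Aspn), chr13:49582212-49582461 (Omd), chr13:49607765-49608014 (Ogn) and chr3:54360857-54361106 (Postn), with matches to the motifs searched in capitals.
Aspn: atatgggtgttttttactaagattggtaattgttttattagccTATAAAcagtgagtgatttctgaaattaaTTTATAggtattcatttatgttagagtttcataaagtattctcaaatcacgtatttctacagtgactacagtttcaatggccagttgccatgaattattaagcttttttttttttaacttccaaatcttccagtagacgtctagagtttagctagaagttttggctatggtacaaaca
Omd: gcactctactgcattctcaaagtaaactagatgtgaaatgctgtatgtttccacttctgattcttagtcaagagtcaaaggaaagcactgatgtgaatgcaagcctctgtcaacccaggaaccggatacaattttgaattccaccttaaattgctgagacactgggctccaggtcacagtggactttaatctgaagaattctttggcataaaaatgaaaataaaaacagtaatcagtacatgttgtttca
Ogn: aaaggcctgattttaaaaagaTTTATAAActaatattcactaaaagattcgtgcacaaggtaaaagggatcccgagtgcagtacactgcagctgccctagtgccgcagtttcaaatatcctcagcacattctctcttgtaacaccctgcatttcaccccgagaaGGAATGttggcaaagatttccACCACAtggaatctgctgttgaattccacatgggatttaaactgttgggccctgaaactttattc
Postn: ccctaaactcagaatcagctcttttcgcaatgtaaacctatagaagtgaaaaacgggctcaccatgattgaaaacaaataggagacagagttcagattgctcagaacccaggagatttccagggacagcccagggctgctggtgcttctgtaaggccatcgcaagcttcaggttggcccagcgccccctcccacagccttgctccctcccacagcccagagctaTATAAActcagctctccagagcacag

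Windows of 300 bases (250 before the start and 50 after it) were searched on both strands for TATAAA (the TATA box), GGAATG (the core bound by TEAD factors), TGTGGT (a RUNX core) and TGANTCA (the AP-1 site), and positions are counted back from the start. Postn held TATAAA at -26, the only motif match in its window. Aspn held TATAAA at -207 and its reverse complement at -178. In Ogn the reverse complement at -229 overlapped TATAAA at -227, GGAATG lay at -86 and the reverse complement of TGTGGT at -65. No match lay in the windows of Omd, Fmod or Bgn, which says only that these letters are not in those windows. Over all 32851 windows in the table, 13.6% held TATAAA, 14.7% GGAATG, 16.8% TGTGGT and 7.81% TGANTCA. The G and C content was 31.0% in the Aspn window, 37.7% in Omd, 42.3% in Ogn, 51.0% in Fmod, 53.0% in Postn and 63.7% in Bgn, against a median of 52.7%. A match is a description of the letters and not a site of binding.

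Per length of exon, Fmod had the highest level of the 10 genes in each of the 6 groups, from 108.7 ± 14.9 CPM per kb (SD, n = 2) in KO at day 28 to 374 ± 4.63 in KO at day 1. The length is that of all exons merged over the transcripts of a gene, 3306 bases for Fmod and 8702 for Postn. The order given here depends on it. In CPM alone, Postn stood above Fmod in WT at day 14 (778.3 against 629.5). It also did so in KO at day 14 (1497 against 747.3) and day 28 (626 against 359.2). Dcn, Lum and Podn had the 3 lowest levels in each group, between 0.0944 CPM per kb for Podn in KO at day 14 and 2.44 for Dcn in KO at day 14. Between these ends the order changed with day and line. At day 1 it ran Mgp, Postn, Bgn, Ogn, Omd and Aspn in both lines, at 60.4, 56.2, 43.7, 19.1, 14.9 and 6.85 CPM per kb in WT and at 80.9, 66.6, 29.4, 29.2, 21.1 and 1.39 in KO. At day 28 in KO, Mgp (6.20 CPM per kb) stood below Ogn (12.2) and Omd (1.45) below Aspn (2.84). Neighbours in the order whose libraries overlapped were Podn, Dcn and Lum in WT at day 1, Lum and Podn in WT at day 14, Postn and Mgp, Omd and Aspn, and Lum and Podn in WT at day 28, Bgn and Ogn in KO at day 1, Mgp and Bgn in KO at day 14, and Dcn and Lum in KO at day 28. Together the 10 genes took 0.104% to 0.269% of all counts in a library, the highest shares being 0.267% and 0.269% in KO at day 14. Of those counts Postn made up 54.1% and 55.2% in KO at day 14 and 36.7% and 39.3% in WT at day 14.

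**Figure D1:**
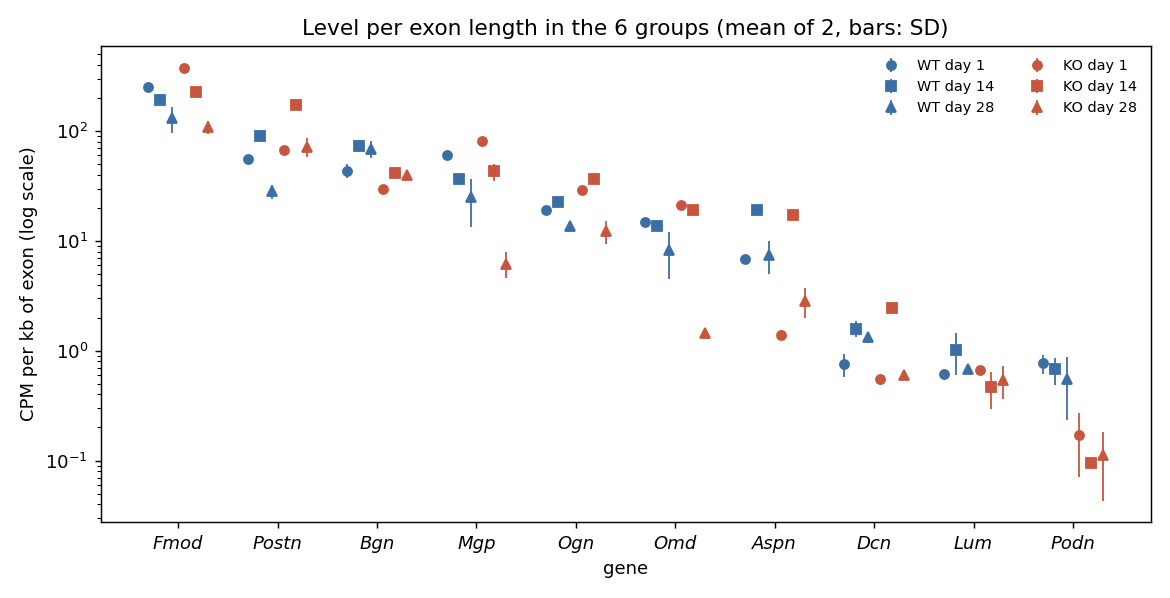
Level of each gene in CPM per kb of exon on a log axis, for the 6 groups (mean of 2 libraries, bars are SD; WT in blue, KO in red; circle, square and triangle are days 1, 14 and 28). On this scale Fmod lies highest in every group, and Omd and Mgp in KO at day 28 (1.45 and 6.20 CPM per kb) lie far below their other groups.

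At day 1, 5 of the 10 genes were called higher in KO than in WT (Fmod, Omd, Ogn, Mgp and Postn) and 3 lower (Bgn, Aspn and Podn), where 19.5% of all genes tested were called higher and 20.8% lower. At day 14, 4 were called higher (Dcn, Omd, Ogn and Postn) and 3 lower (Bgn, Lum and Podn), against 23.8% and 25.9% of all genes. At day 28, 1 was called higher (Postn) and 6 lower (Dcn, Bgn, Aspn, Omd, Podn and Mgp), against 19.8% and 21.2%. Single libraries moved some of these counts: the 5 higher at day 1 were 2 without either WT library or replicate 2 of KO at day 1, and 3 without replicate 1 of KO at day 1 or either WT library of day 14, and the 4 higher at day 14 were 2 (Ogn and Postn) without replicate 1 of WT at day 14. The 5 higher at day 1 were also 2 with DESeq2 and 3 with library totals alone. The median log2 fold change of the 10 genes was 0.18 at day 1, 0.24 at day 14 and -0.97 at day 28, beside -0.01, -0.02 and -0.01 over all genes. Since the genes were picked with these values known, nothing is read from the shares. Bgn and Podn were called lower and Postn higher in KO at all 3 days, Omd was called higher at days 1 and 14 and lower at day 28, and Dcn was called higher at day 14 and lower at day 28. The calls of Postn at day 1, Omd at days 1 and 14 and Dcn at day 14 were lost in some settings, as given below.

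**Figure D2:**
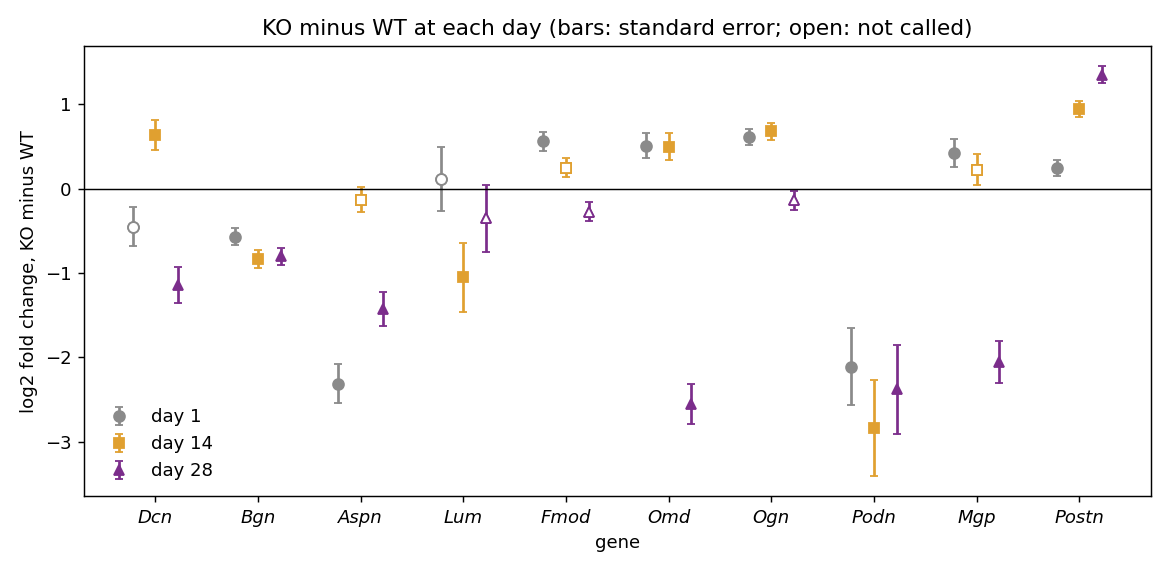
KO minus WT log2 fold change of each gene at day 1 (circles), day 14 (squares) and day 28 (triangles), with the standard error as bars and open symbols where the difference was not called. Postn climbs from 0.24 to 1.35 over the 3 days while Omd and Mgp lie above 0 at day 1 and at -2.55 and -2.06 at day 28.

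Dcn, Bgn and Aspn belong to class I of the family. Dcn, which encodes decorin, a collagen-binding proteoglycan that also binds TGF-beta, was low in this line. In WT its level was 3.64 and 5.12 CPM on day 1, 8.18 and 10.4 on day 14 and 8.37 and 7.18 on day 28. In KO it was 3.25 and 3.16, 14.1 and 14.5 and 3.29 and 3.73 CPM. The 2 KO libraries of day 14 were the highest of all 12, and the WT and KO libraries did not overlap at any day. KO minus WT was -0.45 ± 0.23 at day 1 (not called), 0.63 ± 0.18 at day 14 and -1.14 ± 0.21 at day 28. The call at day 14 was lost without replicate 1 of WT at day 14, at 0.46. From day 1 to day 14 Dcn was higher by 1.07 ± 0.20 in WT and by 2.15 ± 0.20 in KO, and from day 14 to day 28 it changed by -2.01 ± 0.20 in KO and by -0.24 ± 0.19 in WT (not called).

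Bgn, the X-linked gene of biglycan, a chondroitin or dermatan sulfate proteoglycan of bone matrix, was the most abundant class I gene. On day 1 the WT libraries stood at 238.5 and 294 CPM, on day 14 at 487 and 412 and on day 28 at 472 and 369.5. The KO libraries stood at 181 and 178, 254.5 and 251 and 252 and 231 CPM. Every KO library lay below both WT libraries of its day. The KO minus WT values were -0.57 ± 0.10, -0.83 ± 0.10 and -0.80 ± 0.10 at days 1, 14 and 28. Both lines were higher at day 14 than at day 1, by 0.76 ± 0.10 in WT and 0.49 ± 0.10 in KO, and from day 14 to day 28 the change was -0.10 ± 0.10 in WT and -0.07 ± 0.10 in KO, neither called except that of WT without replicate 1 of WT at day 28 (-0.29).

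Aspn encodes asporin, a relative of decorin without a glycosaminoglycan chain that competes for collagen and TGF-beta. It stood at 16.8 and 15.5 CPM in WT and 3.50 and 3.02 in KO at day 1. At day 14 the libraries stood at 42.0 and 47.8 CPM in WT and 42.1 and 39.8 in KO. At day 28 they stood at 21.6 and 13.4 and 8.13 and 5.23. The lines overlapped at day 14 and at neither other day, and both were highest at day 14. KO minus WT was -2.31 ± 0.23 at day 1, -0.13 ± 0.15 at day 14 (not called) and -1.43 ± 0.20 at day 28. The change from day 1 to day 14 was 1.47 ± 0.16 in WT and 3.65 ± 0.21 in KO, and from day 14 to day 28 it was -1.34 ± 0.16 and -2.64 ± 0.19. Day 28 stood 1.01 ± 0.27 above day 1 in KO, a call lost without replicate 1 of KO at day 28 (0.68), and 0.13 ± 0.17 above it in WT, not called except without replicate 2 of WT at day 28 (0.42). Exons of Aspn overlap an exon of Cenpp on the opposite strand by 7 bases, and Omd and Ogn lie within Cenpp with 0 shared exon bases. The strand setting of the counting is not given in the sources used here, and Cenpp itself was not called between the lines at any day.

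Fmod, Lum and Omd belong to class II. Fmod encodes fibromodulin, a keratan sulfate proteoglycan that binds collagen and is abundant in tendon. In WT it stood at 800.3 and 871 CPM on day 1, 652 and 607 on day 14 and 514 and 351 on day 28. In KO it stood at 1225 and 1247, 762 and 732 and 394 and 324.5 CPM. Both lines were highest at day 1 and lowest at day 28, and the lines overlapped at day 28. The KO minus WT value was 0.56 ± 0.11 at day 1, 0.25 ± 0.11 at day 14 and -0.27 ± 0.11 at day 28, of which the last pair was not called. Leaving out either WT library of day 28 made the day 14 difference a call, at 0.25 in each case. The day 28 difference was called without replicate 2 of WT (-0.52) and without replicate 1 of KO (-0.41). From day 1 to day 14 Fmod changed by -0.41 ± 0.11 in WT, a call lost with DESeq2 (-0.41) and without replicate 2 of WT at day 1 or at day 14 (-0.35 each), and by -0.73 ± 0.11 in KO. From day 1 to day 28 it changed by -0.95 ± 0.11 in WT and by -1.78 ± 0.12 in KO.

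Lum, the gene of lumican, another keratan sulfate proteoglycan, had 9 to 28 counts per library. Its WT level was 1.56 and 1.44 CPM on day 1, 1.77 and 3.24 on day 14 and 1.68 and 1.65 on day 28. Its KO level was 1.71 and 1.54, 0.850 and 1.46 and 1.64 and 1.02 CPM. The KO minus WT values were 0.11 ± 0.38, -1.05 ± 0.41 and -0.35 ± 0.40, and the call at day 14 was lost without replicate 2 of WT (-0.60) or replicate 1 of KO (-0.73) at that day. The lines overlapped at day 1 and not at days 14 and 28. No change of Lum between days was called in either line.

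Omd encodes osteomodulin, also called osteoadherin, a keratan sulfate proteoglycan of mineralised tissue that binds collagen and integrins. Its level in WT was 33.0 and 33.9 CPM on day 1, 30.4 and 31.1 on day 14 and 24.8 and 12.7 on day 28. In KO it was 46.6 and 48.5 CPM on day 1, 42.9 and 43.8 on day 14 and 3.37 and 3.12 on day 28. The KO libraries were the highest at days 1 and 14 and the lowest at day 28, with no overlap at any day. KO minus WT was 0.51 ± 0.15 at day 1, 0.50 ± 0.16 at day 14 and -2.55 ± 0.24 at day 28. The call at day 1 was lost without either WT library or replicate 2 of KO at day 1 (0.48 to 0.53), and that at day 14 without any 1 library of that day (0.48 to 0.51). From day 14 to day 28 the fitted change was -3.74 ± 0.22 in KO and -0.69 ± 0.17 in WT. The 2 WT libraries of day 28 themselves differed by 1.95-fold in Omd.

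Ogn belongs to class III of the family. Ogn encodes osteoglycin, also known as mimecan, a secreted proteoglycan of bone and of muscle. The WT libraries had 47.7 and 50.3 CPM on day 1, 57.6 and 59.4 on day 14 and 35.4 and 34.4 on day 28. The KO libraries had 74.3 and 75.4, 95.1 and 91.9 and 26.1 and 36.7 CPM. The KO libraries lay above WT at days 1 and 14, and the lines overlapped at day 28. The KO minus WT values were 0.61 ± 0.10, 0.68 ± 0.10 and -0.14 ± 0.11, the last not called except without replicate 2 of KO at day 28 (-0.42). From day 14 to day 28 Ogn changed by -0.74 ± 0.11 in WT and by -1.56 ± 0.10 in KO. The earlier change, from day 1 to day 14, was 0.32 ± 0.09 in KO and 0.25 ± 0.10 in WT. It was called in KO but not without either KO library of day 1 or replicate 1 of KO at day 14 (0.29 to 0.33), and it was called in WT without any 1 library of day 28 in either line (0.25 to 0.26) and not otherwise among the libraries left out.

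Podn, the gene of the class V protein podocan on chromosome 4, was at a low level in WT and lower in KO. The day 1 libraries had 43 and 57 counts of Podn in WT and 5 and 14 in KO, the day 14 libraries 41 and 20 against 4 and 5, and the day 28 libraries 48 and 17 against 8 and 4. As CPM, WT had 2.80 and 3.74 on day 1, 3.46 and 2.31 on day 14 and 3.35 and 1.40 on day 28, and KO had 0.427 and 1.03, 0.378 and 0.429 and 0.692 and 0.272. Every KO library lay below every WT library. KO minus WT was -2.11 ± 0.46 at day 1, -2.83 ± 0.57 at day 14 and -2.38 ± 0.53 at day 28. The size of the day 1 and day 28 values rested on single libraries: day 1 came to -2.90 without replicate 2 of KO, and day 28 to -1.59 without replicate 1 of WT and -3.11 without replicate 1 of KO. No change between days was called in either line, except that the WT value from day 1 to day 28 (-0.43 ± 0.36) became a call without replicate 1 of WT at day 28 (-1.21).

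**Figure D3:**
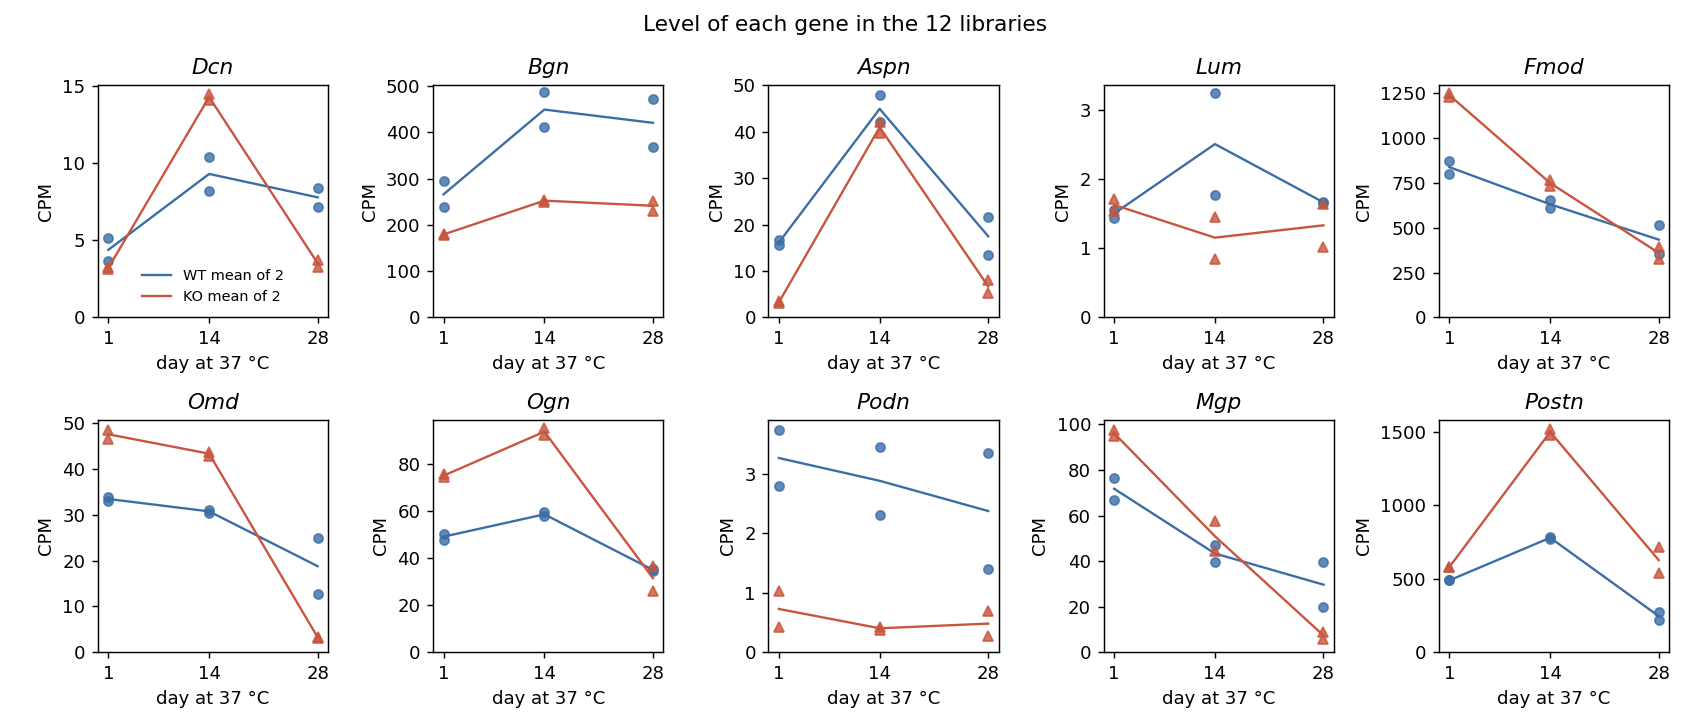
CPM of each of the 10 genes in the 12 libraries against the day at 37 °C (WT blue circles, KO red triangles, lines join the means of 2 libraries; each panel has its own axis from 0). Aspn meets in the 2 lines at day 14 alone, Omd and Mgp of KO lie above WT at day 1 and below it at day 28, and Postn of KO lies above WT at each day.

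Mgp encodes matrix Gla protein, an inhibitor of calcification in cartilage and vessel wall. Its level in WT was 67.0 and 76.5 CPM on day 1, 46.9 and 39.8 on day 14 and 39.5 and 19.8 on day 28. Its level in KO was 97.5 and 94.7, 44.4 and 57.4 and 8.74 and 5.98 CPM. KO lay above WT at day 1, overlapped it at day 14 and lay below it at day 28. The difference of KO from WT was 0.42 ± 0.16 at day 1, 0.23 ± 0.19 at day 14 (not called) and -2.06 ± 0.25 at day 28. The day 1 call was lost without any 1 library of day 1 and without either WT library of day 14, at 0.33 to 0.52. The 2 WT libraries of day 28 differed by 1.99-fold, and the day 28 value came to -1.46 without replicate 1 of WT. From day 1 to day 28 Mgp changed by -1.25 ± 0.18 in WT (-1.86 without replicate 1 of WT at day 28) and by -3.73 ± 0.22 in KO. In WT the step from day 1 to day 14 was -0.72 ± 0.18, a call lost with DESeq2 (-0.73) and without replicate 2 of WT at day 1 (-0.62) or at day 14 (-0.61). The WT step from day 14 to day 28, -0.54 ± 0.19, was no longer called with DESeq2 (-0.54), without either WT library of day 14 (-0.40 and -0.65) or replicate 2 of WT at day 28 (-0.15), and came to -1.14 without replicate 1.

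Postn encodes periostin, whose fasciclin domains bind matrix partners and which takes part in collagen cross-linking. For WT the libraries of day 1 had 489 and 489.5 CPM, those of day 14 772 and 785 and those of day 28 272 and 218. The KO libraries had 582 and 576.5, 1479 and 1516 and 712.5 and 539.5 CPM. Every KO library lay above both WT libraries of its day, and both lines peaked at day 14. As KO minus WT, Postn had 0.24 ± 0.10 at day 1, 0.94 ± 0.10 at day 14 and 1.35 ± 0.10 at day 28. The day 1 call lay at the threshold and was lost when any 1 library of day 1 or day 14 was left out (0.24 to 0.25). From day 14 to day 28 Postn changed by -1.66 ± 0.10 in WT and by -1.26 ± 0.10 in KO. Compared with day 1, day 28 was lower in WT, at -0.99 ± 0.10, and in KO the value was 0.11 ± 0.10, not called except without replicate 2 of KO at day 28 (0.29).

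Across the days in WT, 4 of the 10 genes were called higher and 2 lower at day 14 than at day 1, where 18.2% and 15.9% of all genes were. The 2 lower were Fmod and Mgp, and the count was 0 with DESeq2 and without replicate 2 of WT at day 1 or at day 14. From day 14 to day 28 in WT, 0 were called higher and 6 lower (17.9% and 16.8% of all genes), and from day 1 to day 28, 2 were called higher and 5 lower (24.6% and 23.4%). In KO the counts were 5 higher and 2 lower from day 1 to day 14 (19.4% and 18.0%), 0 and 7 from day 14 to day 28 (25.6% and 25.1%), and 2 and 4 from day 1 to day 28 (28.2% and 27.4%), the 2 being 1 without replicate 1 of KO at day 28. Beside both counts of 0 from edgeR, the number of these genes higher at an unadjusted p below 0.05 was 0, and DESeq2 and limma voom also called 0. The 6 genes called lower from day 14 to day 28 in WT were Aspn, Fmod, Omd, Ogn, Mgp and Postn, and in KO these 6 and Dcn were. The median of the 10 genes for that step was -0.54 in WT and -1.41 in KO, beside -0.01 over all genes in each line. The comparisons share libraries, so they are not independent of each other.

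The difference between the lines in the change from day 1 was fitted as a term of its own. From day 1 to day 14, 3 of the 10 genes were called higher (Dcn, Aspn and Postn) and 0 lower for KO minus WT, against 9.19% and 9.65% of all genes. The count of 0 from edgeR was also 0 at an unadjusted p below 0.05 and with DESeq2 and limma voom. From day 1 to day 28, 1 was called higher (Postn) and 4 lower (Fmod, Omd, Ogn and Mgp), against 10.6% and 9.46%. The largest of these differences were -3.06 ± 0.29 for Omd and -2.48 ± 0.30 for Mgp at day 28 and 2.18 ± 0.28 for Aspn at day 14. The Mgp value came to -1.88 without replicate 1 of WT at day 28. The Dcn value of 1.08 ± 0.29 was no longer called without replicate 2 of WT at day 1 (0.82), replicate 1 of WT at day 14 (0.91) or replicate 2 of KO at day 1 (1.06). For the change from day 1 to day 14, Bgn (-0.26 ± 0.15) and Fmod (-0.32 ± 0.16) were not called. Both became calls without replicate 1 of WT at day 28 (-0.27 and -0.32). Fmod also became a call without replicate 2 of WT at day 28 (-0.32). The fitted rise of Bgn from day 1 to day 14 was smaller in KO than in WT, and the fitted fall of Fmod larger. With neither difference called, the lines are not said to differ in these changes. For the change to day 28, Aspn (0.88 ± 0.32, not called) became a call without replicate 1 of WT or replicate 2 of KO at day 28 (1.28 and 1.19), and Bgn (-0.23 ± 0.14) without replicate 2 of WT at day 28 (-0.40).

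Log2 CPM was compared over the 12 libraries between each pair of the 10 genes. The highest Pearson r was 0.96, between Omd and Mgp, which lie on different chromosomes, followed by 0.92 for Fmod and Mgp, 0.88 for Dcn and Aspn and 0.84 for Fmod and Omd. Of the neighbours on chromosome 13, Omd and Ogn had r = 0.80, Aspn and Omd 0.30, and Aspn and Ogn 0.23. Dcn and Lum, which lie within 93.1 kb on chromosome 10, had r = 0.03. The lowest values were -0.46 for Postn and Podn and -0.45 for Fmod and Bgn. The 12 points are 6 groups of 2 that share line and day, so these values describe the groups and no p is given.

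**Figure D4:**
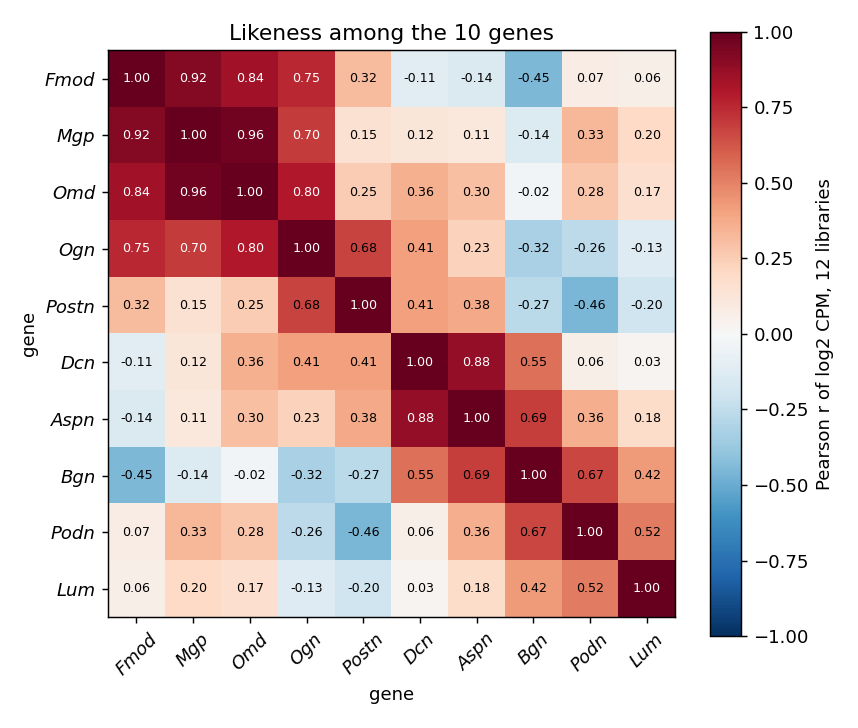
Pearson r of log2 CPM between each pair of the 10 genes over the 12 libraries (red positive, blue negative). Fmod, Mgp and Omd form a block of r = 0.84 to 0.96, with Ogn at 0.70 to 0.80 to each, and Dcn and Aspn stand at 0.88.

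Among 12600 other genes with a mean of at least 1 CPM, those with patterns most like Mgp over the 12 libraries were Col12a1 (r = 0.97), a collagen of the fibril surface, and Tnrc18 (0.97). For Omd they were Rab13 and Pcolce (0.97 each), the latter the enhancer of procollagen C-proteinase. Fmod was most like Ndnf and Khdrbs1 (0.98 each), Ogn like Mrps25 and Actb (0.98 each) and Postn like Dyrk2 and Col5a2 (0.97 each). Aspn was most like Tbl2 (0.98) and Plod2 (0.98), a lysyl hydroxylase of collagen, and Dcn like Samd5 (0.96) and Twist1 (0.95). Bgn was most like Armcx6 (0.98) and Abi3bp (0.97), Podn like Tfpi (0.96) and Ltbp2 (0.95), and Lum like Cadm1 (0.86) and Use1 (0.84). These are the 2 highest of many correlations for each gene, over points that share line and day, and are given as a description.

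Of 10 other small leucine-rich proteoglycan genes, 7 were tested, and Kera, Epyc and Nyx, with 0, 1 and 39 counts in all libraries together, fell below the filter. At day 1, 2 rose in KO against WT and 0 fell, at day 14, 4 rose and 0 fell, and at day 28, 0 rose and 1 fell. At an unadjusted p below 0.05 the counts of 0 from edgeR were 0, 0 and 1, and DESeq2 and limma voom called 0 in each. Here and for the lists below, the counts stand beside shares over all genes tested. Called higher in KO were 19.5% at day 1, 23.8% at day 14 and 19.8% at day 28. Called lower were 20.8%, 25.9% and 21.2%. Nothing is read from the list counts, several of which lie near these shares. Prelp, a class II gene 115.8 kb from Fmod, was at 22.9 ± 1.58 CPM in WT and 49.8 ± 1.68 in KO at day 1 (SD, n = 2) and was higher in KO by 1.12 ± 0.12 at day 1 and 0.44 ± 0.11 at day 14, with 0.17 ± 0.10 at day 28 (not called). Podnl1, the closest relative of Podn, went the other way from Podn at days 1 and 14, with 0.63 ± 0.13 and 0.61 ± 0.15, and fell by 0.53 ± 0.17 at day 28. That call and the count of 1 were lost without replicate 1 of WT or replicate 2 of KO at day 28. Ecm2 (1.46 ± 0.29) and Tsku (1.26 ± 0.22) rose at day 14 and were not called at days 1 (0.28 and 0.10) and 28 (0.33 and 0.14). Chad, Chadl and Optc were not called at any day, although 1 of the 7 genes was called higher at day 28 without replicate 1 of WT at day 28.

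The chains of these proteoglycans are built by other enzymes. Of 24 tested genes for the glycosaminoglycan linker and for chondroitin or dermatan sulfate, 11 rose and 2 fell in KO at day 1, 10 rose and 3 fell at day 14, and 9 rose and 3 fell at day 28, with medians of 0.21, 0.17 and 0.06. Chst3, a chondroitin sulfotransferase, was higher in KO by 1.46 ± 0.14 at day 1 and 1.24 ± 0.13 at day 28, and Chst11, another one, by 0.88 ± 0.11 at day 14. Papss2, which makes the sulfate donor, fell by 2.82 ± 0.21 at day 1 and by 0.71 ± 0.14 at day 28. The count of fallers at day 1 was 1 without replicate 1 of WT or replicate 2 of KO at that day, at day 14 it was 1 without replicate 1 of WT, and at day 28 it was 1 without replicate 1 of WT and 5 without replicate 2. Of 7 tested keratan sulfate enzymes, 1 rose and 3 fell at day 1, and 1 rose and 2 fell at days 14 and 28. B4galt4 fell by 1.19 ± 0.33 at day 1, by 2.85 ± 0.41 at day 14 and by 1.65 ± 0.31 at day 28. Its call at day 1 was lost without replicate 2 of KO at that day. B4galt1, another galactosyltransferase, fell by 0.86 ± 0.07 at day 28. The riser at day 1 was Fut8 (0.44 ± 0.09). St3gal1 fell by 0.52 ± 0.16 at day 1 and was the riser at day 14 (0.45 ± 0.13) and day 28 (0.48 ± 0.13). The keratan sulfate counts were sensitive to single libraries, with 0 fallers at day 1 without replicate 2 of KO, 1 at day 14 without replicate 1 of WT or either KO library, and 0 or 2 risers at day 28 without replicate 1 of KO or replicate 2 of WT.

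Of 10 tested collagens that these proteins bind, 4 rose and 1 fell at day 1, 8 rose and 1 fell at day 14, and 2 rose and 4 fell at day 28, with medians of 0.15, 0.71 and -0.19. Col6a3 was higher in KO by 0.91 ± 0.11 at day 1 and 1.47 ± 0.11 at day 14, and Col1a1, the main collagen of bone, by 1.31 ± 0.16 at day 14. Col3a1 fell by 1.05 ± 0.16 at day 1, and Col12a1 and Col11a1 fell by 1.26 ± 0.10 and 0.81 ± 0.09 at day 28. At day 28 the counts were 4 rising and 2 falling without replicate 1 of WT, and 1 rising without replicate 2 of WT or replicate 1 of KO. The count of 1 falling at day 14 (Col12a1) was 0 without replicate 2 of either line, and that at day 1 was 2 without any 1 library of day 28. Of 11 tested proteases and propeptide enzymes, 5 rose and 1 fell at day 1, 7 rose and 1 fell at day 14, and 4 rose and 5 fell at day 28. Adamts4, a proteoglycan-cleaving enzyme, was higher in KO by 0.83 ± 0.08 at day 1 and 1.98 ± 0.09 at day 14, and Mmp13, a collagenase, by 2.79 ± 0.24 at day 14. Mmp2 and Pcolce fell by 0.99 ± 0.08 and 0.72 ± 0.09 at day 28. The single faller at day 1, Bmp1 (-0.20 ± 0.08), was lost without any 1 library of day 1 or 14, and 2 genes fell without any 1 library of day 28. The 4 risers of day 28 were 2 without replicate 2 of KO.

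Of 12 tested genes of vitamin K-dependent carboxylation and other Gla proteins, the group to which Mgp belongs, 3 rose and 2 fell at day 1, 3 rose and 5 fell at day 14, and 2 rose and 3 fell at day 28. Bglap2, an osteocalcin gene, was higher in KO by 1.04 ± 0.18 at day 1, fell by 1.06 ± 0.14 at day 14 and was higher by 0.47 ± 0.12 at day 28. Bglap, Bglap2 and Bglap3 are osteocalcin genes of similar sequence, and the counting could have split reads among them. Ggcx, the carboxylase, fell by 0.37 ± 0.10 at day 1, a call lost without replicate 2 of WT at day 1, when the count of fallers was 1. The 5 fallers at day 14 were 2 or 3 without any 1 library of that day, and the 3 at day 28 were 1 without replicate 1 of WT or replicate 2 of KO. Of 20 tested matricellular genes and periostin partners, 5 rose and 8 fell at day 1, 7 rose and 10 fell at day 14, and 1 rose and 12 fell at day 28, with medians of -0.17, -0.56 and -0.62. Tnc, whose product tenascin-C binds periostin, was the single riser at day 28 (0.39 ± 0.09), and without replicate 1 of WT at that day 2 rose. Its relative Tnn fell by 4.18 ± 0.31 at day 1 and by 3.47 ± 0.38 at day 28, and Ccn3 fell by 1.87 ± 0.11, 2.33 ± 0.10 and 2.13 ± 0.11 at days 1, 14 and 28. Sparcl1 was higher in KO by 1.46 ± 0.22 at day 1 and 2.02 ± 0.14 at day 14. The 5 risers of day 1 were 3 without replicate 1 of KO or replicate 2 of WT.

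Of 14 tested large matrix and cell-surface proteoglycans, 5 rose and 5 fell at day 1, 5 rose and 6 fell at day 14, and 1 rose and 6 fell at day 28. Vcan, the gene of versican, was higher in KO by 1.81 ± 0.09 at day 1 and 1.88 ± 0.08 at day 14, and Cspg4 fell by 4.54 ± 0.24, 3.44 ± 0.20 and 3.03 ± 0.21 at days 1, 14 and 28. Gpc1, a glypican, was the single gene to rise at day 28 (0.99 ± 0.09), and 2 rose without either WT library of that day. The 5 risers of day 1 were 2 without any 1 library of day 1, the 5 of day 14 were 3 without either KO library or replicate 2 of WT, and the 5 fallers of day 1 were 3 without replicate 1 of KO or replicate 2 of WT. Of 21 tested TGF-beta and BMP ligands, receptors and feedback genes, 5 rose and 5 fell at day 1, 4 rose and 9 fell at day 14, and 4 rose and 11 fell at day 28. Bmp2 was higher in KO by 2.16 ± 0.06 at day 28, and Ltbp2, a latent TGF-beta binding protein gene, fell by 2.75 ± 0.26, 3.27 ± 0.29 and 2.68 ± 0.31 at days 1, 14 and 28. The risers were 3 at day 1 without replicate 2 of KO, and 7 at day 14 without either WT library of day 28.

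Genome neighbours of the 10 genes were the 2 nearest tested protein-coding genes on each side, 28 in all. Of these, 5 rose and 7 fell in KO at day 1, 9 rose and 6 fell at day 14, and 5 rose and 9 fell at day 28. Over all genes tested, 19.5%, 23.8% and 19.8% were called higher at these days and 20.8%, 25.9% and 21.2% lower. Nothing is read from the neighbour counts. Around Mgp, Arhgdib, 47.8 kb away, had the same signs as Mgp, with 0.80 ± 0.13, 0.39 ± 0.15 and -1.39 ± 0.19 at days 1, 14 and 28. Rerg, 179 kb away, had -2.80 ± 0.18, 0.25 ± 0.13 (not called) and -0.74 ± 0.16, Wbp11 was called at day 14 alone (0.19 ± 0.07), and BC049715, with 95 counts in all, at day 14 alone (2.34 ± 0.75). Next to the Aspn, Omd and Ogn genes, Ecm2, another member of the family, lies 11.7 kb below Aspn with the values given above, Nol8 was called at days 14 (0.21 ± 0.08) and 28 (0.24 ± 0.08), Iars at all 3 days (-0.54 ± 0.07, -0.54 ± 0.07 and 0.18 ± 0.07), and Tes3-ps at none. Around Fmod, Btg2 had 0.55 ± 0.12, -0.18 ± 0.15 (not called) and -0.95 ± 0.15, and Ppfia4 was called at day 28 alone (1.13 ± 0.30). Around Podn, Echdc2 had -1.19 ± 0.20, -1.07 ± 0.22 and -0.95 ± 0.23 and Scp2 -0.25 ± 0.08, -0.34 ± 0.08 and -0.54 ± 0.08, while Cpt2 was called at day 28 alone (-0.55 ± 0.15) and Magoh at none. Scp2 overlaps Podn on the same strand with 0 shared exon bases.

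Around Bgn, Zfp275 was called at days 1 (-0.24 ± 0.08) and 28 (-0.40 ± 0.08), Slc6a8 at days 14 (-0.54 ± 0.12) and 28 (-0.63 ± 0.11) and Haus7 at none. Dusp9 had 49 counts in all, of which the KO libraries of days 1 and 14 held 0. Around Postn, Proser1 was called at days 14 (0.40 ± 0.13) and 28 (0.35 ± 0.12), Supt20 at days 1 (0.19 ± 0.07) and 14 (0.24 ± 0.07), Exosc8 at day 28 (0.29 ± 0.08) and Ufm1 at none, and none of these values reached the 1.35 of Postn at day 28. Around Dcn and Lum the nearest tested genes lie 856.8 kb or more away: Btg1 was called at day 28 (-0.40 ± 0.07), Eea1 at days 1 (0.24 ± 0.07) and 14 (0.26 ± 0.07), Atp2b1 at days 1 (-0.24 ± 0.06) and 14 (-0.81 ± 0.07) and Poc1b at none.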

How the data were processed

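The authors deposited raw read counts per gene for 12 libraries (0 columns were left out). Per the submitters' processing notes, the tools named were STAR, featureCounts of Subread and edgeR, with the build mm10. Versions, annotation, strand setting and multi-mapping are not given in the sources used for this work. Of 32248 rows, 9345 had no count and 3 were transgenes kept out of the tests. No 2 replicates held identical counts. In R 4.3.3 with edgeR 4.0.16, genes were kept by filterByExpr (minimum count 10, minimum total 15), scaled by TMM and fitted with 1 coefficient for each of 6 groups. Each of 11 comparisons was tested two-sided with the quasi-likelihood F test (6 residual and 14.6 prior degrees of freedom, common biological coefficient of variation 5.53%) and adjusted by Benjamini-Hochberg. Standard errors were derived from the log2 fold change and its F statistic. The script was tested on simulated data. Positions and the length of the exons of each gene, merged over its transcripts, came from GENCODE M21 (GRCm38/mm10), which held 99.2% of the genes tested. Log2 CPM for correlations used a prior count of 2. Alternatives were other size factors, library totals, no filter, DESeq2 1.42.0, limma 3.58.1 (voom), a replicate block and leaving out each library.

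The members, gene lists and tests were chosen with earlier results of these data known. By rule the text names the 10 genes, all measured other small leucine-rich proteoglycans and genome neighbours, and of each other list up to the 2 highest and 2 lowest called log2 fold changes with a mean of at least 1 CPM in each comparison. For each gene the 2 most alike other genes are named.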

Additional observations from a re-analysis of the deposited data

Results flagged for a closer look

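In 8 cases the change from day 1 differed between KO and WT by the fitted difference of changes (edgeR, n = 2 per group, log2 scale, KO minus WT). To day 14 the difference was 1.08 for Dcn, 2.18 for Aspn and 0.70 for Postn. To day 28 it was -0.84 for Fmod, -3.06 for Omd, -0.75 for Ogn, -2.48 for Mgp and 1.11 for Postn. Each gene was chosen with these values known, so they are given as a description.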

How the results depend on the processing

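The 110 member values (10 genes in 11 comparisons, 69 called) were recomputed under 18 settings, and 86 of them stayed on the same side of the threshold in every one, with 0 reversed. With DESeq2, 8 calls were lost and 1 was gained, and the number of genes called at day 1 was 5 instead of 8. The calls lost were those of Omd (0.51), Mgp (0.43) and Postn (0.25) at day 1, of Omd (0.50) and Lum at day 14, of Fmod (-0.41) and Mgp (-0.73) from day 1 to day 14 in WT, and of Mgp from day 14 to day 28 in WT (-0.54). The call of Lum at day 14 was lost with DESeq2 (-1.08) and with limma voom. With library totals alone Mgp and Postn at day 1 were not called (0.36 and 0.19). With DESeq2, with no filter and with a replicate block, 2 genes instead of 1 were called higher for the difference of change to day 28. With no filter, 5 genes were called for the difference of change to day 14 instead of 3. Leaving out 1 library at a time gave 5 to 8 genes called at day 1 and 2 to 5 for the difference of change to day 14. The replicate numbers did not pair the samples (1 of 15 group pairs correlated above 0.1, range -0.04 to 0.11). A replicate block lost 0 calls and gained 4, Fmod at days 14 (0.25) and 28 (-0.26), Ogn from day 1 to day 14 in WT (0.26) and Aspn for the difference of change to day 28 (0.89). Counts of the other gene lists under these settings were added after seeing the data, and 74 of 972 moved by over 1.5 times. With DESeq2 the genes lower in KO were 3 instead of 5 (day 14) and 1 instead of 3 (day 28) for the Gla protein list, 1 instead of 2 for keratan sulfate enzymes at day 14, and 0 instead of 1 for collagens at day 14 and proteases at day 1. Collagens higher in KO at day 28 were 1 instead of 2 with DESeq2 and with library totals. Library totals gave 2 instead of 5 large proteoglycans higher at day 1 and 3 instead of 5 at day 14, and 2 instead of 1 collagens and proteases lower at day 1. With no filter, 2 instead of 1 collagens were lower at day 1 and 2 instead of 1 matricellular genes higher at day 28.

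With 2 libraries per group, precision is limited, most of all for Lum (9 to 28 counts per library) and Podn in KO (4 to 14).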
